A study of Mus musculus with 20 samples.

Results

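The 10 genes described here encode heavy chains of major histocompatibility complex (MHC) class I molecules in the mouse. They are the classical genes H2-K1 and H2-D1, the Q region genes H2-Q4, H2-Q6, H2-Q7 and H2-Q8, the T region genes H2-T22, H2-T23 and H2-T24, and H2-M3. They were taken by symbol from a table of 37620 genes, all 10 were present, and all 10 passed the filter on low counts. The symbols alone decided membership, but the family was chosen by its gene counts in these same mice, so its fall as a whole describes these libraries and is not independent evidence. Whole bone marrow RNA came from 20 recipient mice in 4 groups of 5. Recipients were lethally irradiated (C57BL/6 × 129S4Sv/Jae)F1 mice that carried marrow of rtTA transgenic donors with a doxycycline-inducible U2AF1(WT) or U2AF1(S34F) transgene, and marrow of several donors was pooled before transplantation. All 20 mice ate doxycycline chow at 625 ppm for 7 days, and all were infused through a jugular catheter on the last 5 of those days, with vehicle or with sudemycin D6. Each genotype thus had a vehicle-treated and a sudemycin-treated group. U2AF1 recognizes the AG at the 3′ end of introns, S34F is a recurrent mutation of it in myelodysplastic syndromes, and sudemycin D6 is a small molecule that binds the spliceosome protein SF3B1.

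A class I heavy chain pairs with β2-microglobulin (B2m), is loaded with a peptide in the endoplasmic reticulum and carries it to the cell surface. The classical chains show peptides to CD8 T cells on almost all nucleated cells, and natural killer (NK) cells read their loss. The non-classical chains are more specialized: H2-T23 encodes Qa-1, a ligand of the CD94/NKG2A receptor, and H2-Q6 and H2-Q7 encode molecules of the Qa-2 type. H2-T22 is recognized by a subset of γδ T cells, and H2-M3 presents peptides that begin with N-formylmethionine. Class I promoters respond to interferon through an interferon-stimulated response element (ISRE), to NF-κB through an enhancer further upstream, and to the activator NLRC5.

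Total counts on genes ranged from 41145892 to 62138138 per mouse with a median of 51836276. Neutrophil markers, 8 listed genes, summed to between 55760 and 134500 CPM (counts scaled by library size to the usual per-million unit) in the mice. U2af1 itself lay between 34.9 and 38.4 CPM in vehicle-treated and between 38.5 and 48.3 CPM in sudemycin-treated U2AF1(WT) mice, while it was between 46.4 and 58.0 CPM in U2AF1(S34F) mice. Xist was at 879 to 1593 CPM in the 10 U2AF1(WT) mice and at most 0.145 CPM in the 10 U2AF1(S34F) mice, and Ddx3y was at 0 in the former and at least 39.3 CPM in the latter. Donor pool, sex of the marrow and transgene therefore cannot be told apart in any comparison of the genotypes below, while the comparisons of sudemycin with vehicle are within 1 genotype. In bulk marrow, fewer cells of a type and less RNA per cell cannot be told apart.

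The splice acceptors on which the junction results turn are shown first. Each line gives the last 30 bases of the intron in mm9, 5′ to 3′ on the strand of the gene, and the capitals mark the last 3 bases, of which the first is the base that differs within each pair. In the last intron of H2-K1 and of H2-D1 an acceptor ending in CAG lies 27 bases upstream of one ending in TAG. H2-K1 used the first for most reads and H2-D1 the second. In the first intron of H2-Q4 the TAG acceptor lies 84 bases upstream of the CAG acceptor.
H2-K1 used most, chr17:34133449-34133478, minus strand: tgatgggttgttcgaatgttgtcttcaCAG
H2-K1 used less, chr17:34133422-34133451, minus strand: cagtgatggttcatgaccctcattctcTAG
H2-D1 used most, chr17:35403781-35403810, plus strand: cagtgatggttcatgactctcattctcTAG
H2-D1 used less, chr17:35403754-35403783, plus strand: tggtgggttgctggaatgttgtcttcaCAG
H2-Q4 used most, chr17:35516735-35516764, plus strand: acctgaccctccgccccttctccacccTAG
H2-Q4 used less, chr17:35516819-35516848, plus strand: gttcggggtctcaccgcgccctgcctcCAG

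The promoters are shown as a description. RefSeq sequences from 250 bases before to 50 bases after the gene start were read for 8 of the 10 genes, all but H2-Q8 and H2-T24, in build GRCm38.p6, so their coordinates differ from the mm9 coordinates used elsewhere. Capitals mark 2 motifs searched on both strands: GGGATTNCC, letters of an NF-κB site, and TTTCACTT, letters of an ISRE.
H2-K1, chr17:34000428-34000459, minus strand: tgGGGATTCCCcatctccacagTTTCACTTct
H2-D1, chr17:35262922-35262953, plus strand: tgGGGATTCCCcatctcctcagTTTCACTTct
H2-Q4, chr17:35379442-35379473, plus strand: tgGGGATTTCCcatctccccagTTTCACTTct
H2-Q6, chr17:35424676-35424707, plus strand: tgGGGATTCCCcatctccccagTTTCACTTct
H2-Q7, chr17:35439021-35439051, plus strand: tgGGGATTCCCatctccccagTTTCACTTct
H2-T22, chr17:36042924-36042935, minus strand: agTTTCACTTtc
H2-M3, chr17:37270131-37270142, plus strand: ggTTTCACTTct
The classical and Q region promoters held both motifs, 11 bases apart in 4 of them and 10 bases apart in H2-Q7. GGGATTNCC was found in 5 of the 8 promoters and in 0.984% of all 27025 promoters of the same length, TTTCACTT in 7 of 8 and in 1.67%, and both together in 5 of 8 and in 0.0333%, which is 9 promoters. In the T and M region, H2-T22 and H2-M3 held TTTCACTT alone, and neither motif was found in the window of H2-T23. TGATGAC, searched for as the X2 box of the SXY module, was found in 6 of 8 (3.36% of all), and CCAATC, searched for as its Y box, in 7 of 8 (16.6% of all). The stretches of the 5 promoters with both motifs are nearly the same sequence, so their matches are not independent of each other. A match is a description of letters only.

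All 10 genes lie on chromosome 17 in mm9: H2-K1 (ENSMUSG00000061232) at chr17:34132962-34137278 on the minus strand, H2-D1 at chr17:35399675-35404444 on the plus strand, the Q genes between chr17:35516562 and 35580714 on the plus strand, H2-T24, H2-T23 and H2-T22 between chr17:36142640 and 36179692 on the minus strand, and H2-M3 at chr17:37407165-37411429 on the plus strand. Per kilobase of exon and over the 20 mice, H2-D1 had the highest level at 395 CPM per kb, followed by H2-K1 at 145, H2-T23 at 45.8, H2-T24 at 35.5, H2-Q4 at 22.8, H2-Q6 at 12.4, H2-T22 at 11.1, H2-Q7 at 8.08, H2-M3 at 5.35 and H2-Q8 at 4.25. The ranges of neighbours in this order were apart only for H2-D1 above H2-K1 and H2-K1 above H2-T23. H2-T24 stood above H2-Q4, and H2-Q4 above H2-Q6, in all 20 mice, and H2-T23 above H2-T24 in 19. The order of the lower genes was less settled: H2-Q6 was above H2-T22 in 11 of 20 mice, H2-T22 above H2-Q7 in 15, H2-Q7 above H2-M3 in 14 and H2-M3 above H2-Q8 in 17. It also turned by group: in vehicle-treated U2AF1(WT) mice H2-Q6 (19.1 CPM per kb) and H2-Q7 (12.9) lay above H2-T22 (12.4), and H2-Q8 (7.62) above H2-M3 (6.66). In sudemycin-treated U2AF1(S34F) mice H2-Q6 (5.12 CPM per kb) and H2-Q7 (3.5) lay below H2-T22 (9.14), and H2-Q7 below H2-M3 (4.07). The transcripts of the 2 classical genes made up most of the family in every group, since H2-D1 held 57.1% ± 1.23 (SD, n = 5) and H2-K1 21.5% ± 1.10 (SD, n = 5) of the summed CPM of the 10 genes in vehicle-treated U2AF1(WT) mice.

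**Figure D1:**
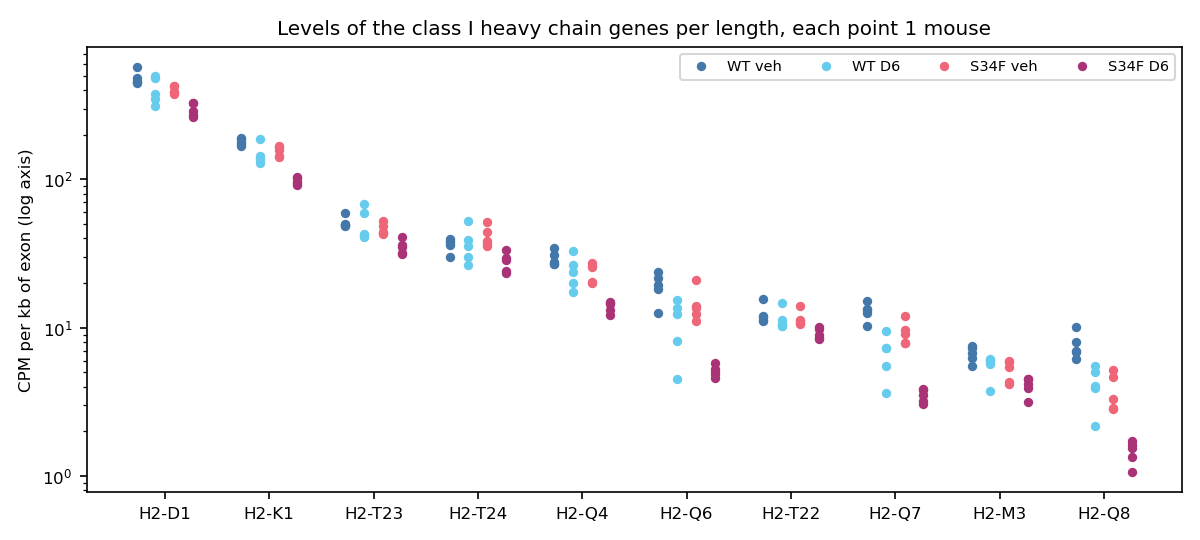
CPM per kilobase of exon (log axis) of each class I heavy chain gene, each point 1 mouse, coloured by group. The 2 classical genes stand above the rest, and the sudemycin-treated U2AF1(S34F) mice are the lowest group for most genes, most visibly for H2-Q6, H2-Q7 and H2-Q8.

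Sudemycin-treated U2AF1(S34F) mice had the lowest mean of all 10 genes. The sum of the 10 genes averaged 2181 ± 182 CPM (SD, n = 5, range 2047 to 2498) with vehicle and 1823 ± 316 CPM (1490 to 2279) with sudemycin in U2AF1(WT) mice. It averaged 1853 ± 119 CPM (1739 to 2010) in vehicle-treated and 1283 ± 109 CPM (1182 to 1407) in sudemycin-treated U2AF1(S34F) mice. All 5 sudemycin-treated U2AF1(S34F) mice lay below the other 15 mice, and the other 3 groups overlapped except that vehicle-treated U2AF1(S34F) mice lay below vehicle-treated U2AF1(WT) mice. Sudemycin was accompanied by a sum that differed by -30.8% in U2AF1(S34F) mice and by -16.4% in U2AF1(WT) mice, and mutation with drug differed from neither by -41.2%. The sum of reads on annotated junctions gave -31.4%, -16.8% and -41.3%.

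Tested gene by gene with edgeR over all genes, at the FDR<10% used for these mice, sudemycin-treated against vehicle-treated U2AF1(S34F) mice gave the clearest set. Of the 10 genes 9 were called lower and 0 higher, where 5.85% of the 14714 genes tested were called lower and 4.94% higher, and 9 had ranges that did not overlap, where 3.97% of all genes lay lower without overlap. The median log2 fold change of the 10 genes was -0.62, beside -0.01 over all genes. In U2AF1(WT) mice the same drug comparison called 2 of 10 lower, H2-Q7 and H2-Q8, where 1.89% of 14763 genes were called lower and 1.18% higher, and the same 2 lay lower without overlap (2.26% of all genes). The median was -0.30 against 0.00, and the count was 1 without mouse 1 of the vehicle group and 3 without mouse 8 of the sudemycin group. Under vehicle, U2AF1(S34F) against U2AF1(WT) called 6 of 10 lower (19.8% of all genes, with 19.7% higher) and 3 lay lower without overlap (10.3%), with a median of -0.30 against 0.00. Under sudemycin D6 the genotypes differed in all 10, all lower in U2AF1(S34F) mice (19.6% of all genes, with 17.2% higher), with 5 apart (9.3%) and a median of -0.56 against -0.03. Mutation with drug against neither called all 10 lower (25.1% of all genes, with 25.1% higher), with 9 apart (12.3%) and a median of -0.79 against 0.00. These comparisons share control groups and are not independent of each other.

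Whether sudemycin lowered the genes more in U2AF1(S34F) than in U2AF1(WT) mice was tested as an interaction. The interaction term was below 0 for all 10 genes, with a median of -0.41 against -0.04 over all genes, but none was called: the smallest FDR was 0.422 for H2-K1. At an unadjusted p under 0.05 there were 4, H2-K1, H2-Q4, H2-T23 and H2-T24, and DESeq2 called 0 as well. Over all 15392 genes only 2 were called (0.013%), and DESeq2 called 116. The larger number of calls in U2AF1(S34F) mice is therefore not shown to be a larger drug effect.

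**Figure D2:**
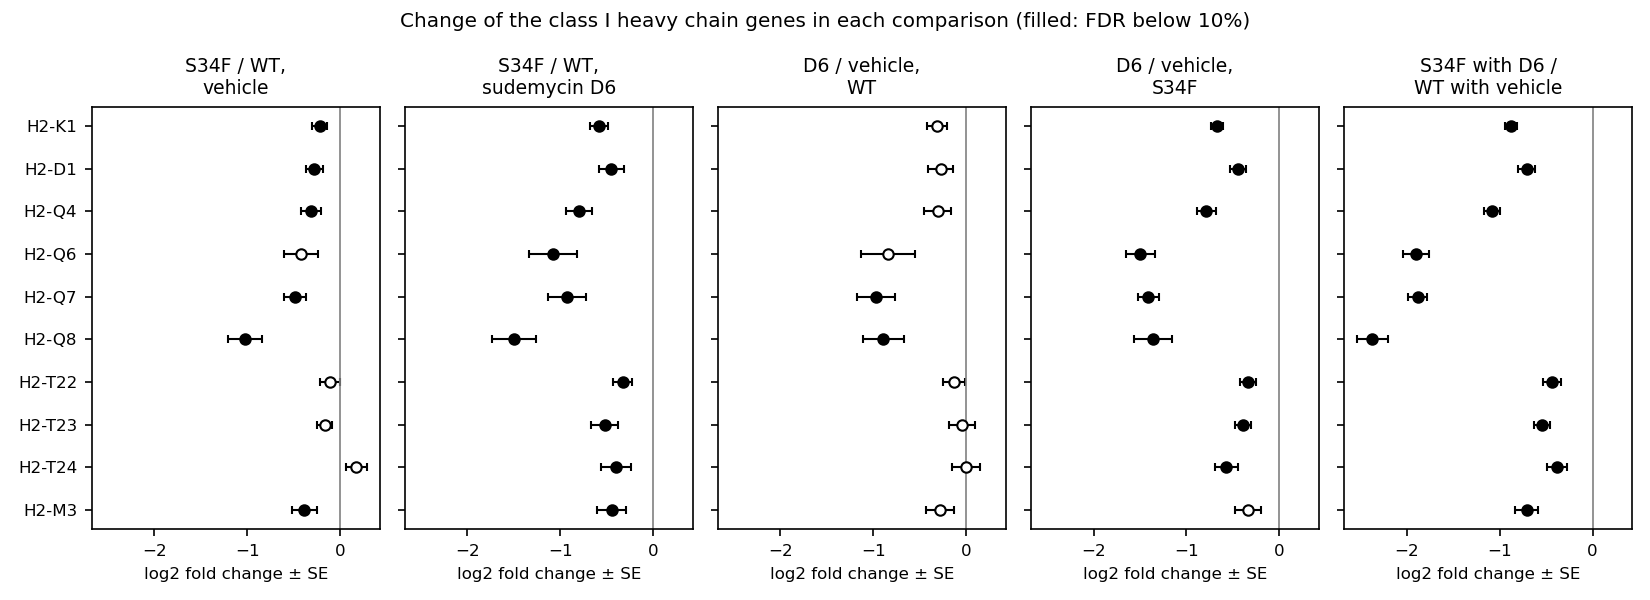
Log2 fold change of each gene with its standard error in 5 comparisons, filled where FDR is below 10%. The points lie left of 0 for all genes in 4 panels, and the vehicle comparison of the genotypes has 1 exception, H2-T24 at 0.17, which was not called. In sudemycin-treated U2AF1(WT) mice only H2-Q7 and H2-Q8 are filled.

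H2-K1 and H2-D1 are the classical chains of the peptide display to CD8 T cells. H2-K1 was at 454, 489.8, 463, 493 and 438 CPM in vehicle-treated and at 334, 486, 374, 358 and 359 CPM in sudemycin-treated U2AF1(WT) mice. It was at 377, 412, 434, 436 and 367 CPM in vehicle-treated and at 251, 267, 246, 240.1 and 269 CPM in sudemycin-treated U2AF1(S34F) mice. The sudemycin-treated U2AF1(S34F) mice were apart from all others, and in sudemycin-treated U2AF1(WT) mice 4 of 5 lay under every vehicle-treated U2AF1(WT) mouse and mouse 8 did not. The drop with sudemycin in U2AF1(S34F) mice was -0.67 ± 0.07 on the log2 scale (SE; FDR 0.000493), from a mean of 405 ± 32.1 to 255 ± 12.8 CPM (SD, n = 5). In U2AF1(WT) mice the value was -0.31 ± 0.11 (FDR 0.197). Between the genotypes it was -0.22 ± 0.08 under vehicle (FDR 0.0531) and -0.59 ± 0.10 under sudemycin D6 (FDR 0.00144), and mutation with drug against neither gave -0.88 ± 0.07 (FDR 1.1e-06). The vehicle call is weak: it was kept in 7 of 10 fits that left out 1 mouse, the highest FDR being 0.143 without mouse 11 of the vehicle-treated U2AF1(S34F) group, and junction reads gave -0.15 (FDR 0.321).

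H2-D1 was at 1168, 1241, 1193, 1474 and 1160 CPM in vehicle-treated and at 813, 1287, 1253, 894 and 977 CPM in sudemycin-treated U2AF1(WT) mice. It was at 1002, 973, 1108, 1100.0 and 1002 CPM in vehicle-treated and at 684, 847, 746, 698 and 841 CPM in sudemycin-treated U2AF1(S34F) mice. Within U2AF1(S34F) the 2 treatments did not overlap, and vehicle-treated mice of the 2 genotypes did not overlap either, while sudemycin-treated U2AF1(WT) mice spread over both. H2-D1 fell with sudemycin in U2AF1(S34F) mice by 0.45 on the log2 scale (SE 0.08, FDR 0.0108) and was called lower in U2AF1(S34F) mice under vehicle (-0.28 ± 0.09, FDR 0.0384) and under sudemycin D6 (-0.45 ± 0.13, FDR 0.0252). In U2AF1(WT) mice the drug value was -0.28 ± 0.14 (FDR 0.417). H2-D1 took 59.4% ± 1.16 of the summed CPM in sudemycin-treated U2AF1(S34F) mice and 56.0% ± 1.74 in their vehicle controls.

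The Q region genes changed most as a group, with a median log2 change of -1.39 with sudemycin in U2AF1(S34F) mice, beside -0.56 for the 2 classical and -0.37 for the 4 T and M region genes. H2-Q7, a Qa-2 gene, was at 56.2, 43.9, 56.8, 64.2 and 53.6 CPM in vehicle-treated and at 31.0, 23.7, 15.4, 40.3 and 31.1 CPM in sudemycin-treated U2AF1(WT) mice. In U2AF1(S34F) mice it was at 38.6, 51.4, 41.02, 33.6 and 33.5 CPM with vehicle and at 16.5, 14.9, 13.8, 16.3 and 13.1 CPM with sudemycin. In both genotypes every sudemycin-treated mouse was below every vehicle-treated mouse. The log2 changes with the drug were -0.97 ± 0.21 in U2AF1(WT) (FDR 0.0376) and -1.41 ± 0.12 in U2AF1(S34F) mice (FDR 0.000139), and both were called in all 10 fits without 1 mouse. H2-Q7 was also called lower in U2AF1(S34F) mice under vehicle (-0.49 ± 0.12, FDR 0.00839) and under sudemycin D6 (-0.93 ± 0.20, FDR 0.00615). Counted by the reads on annotated junctions, both genotype calls were lost, at 0.08 under vehicle (FDR 0.796), a turned direction, and -0.52 under sudemycin D6 (FDR 0.293). So was the drug call in U2AF1(WT) mice (-0.99, FDR 0.134), and the drug call in U2AF1(S34F) mice was kept.

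H2-Q8 had the lowest level per length over the 20 mice, and the largest genotype changes by gene counts, though not by junction reads. It was at 11.4, 10.1, 13.2, 16.6 and 11.3 CPM in vehicle-treated and at 6.42, 8.30, 3.59, 6.65 and 9.10 CPM in sudemycin-treated U2AF1(WT) mice. With the mutation it was at 4.63, 8.57, 7.61, 5.43 and 4.73 CPM with vehicle and at 2.66, 2.83, 2.19, 2.53 and 1.75 CPM with sudemycin, the lowest count being 88. The vehicle-treated U2AF1(WT) mice were above all other mice and the sudemycin-treated U2AF1(S34F) mice below all others. The drug changes were -0.89 ± 0.22 in U2AF1(WT) (FDR 0.0581, called in 5 of 10 fits without 1 mouse, up to 0.140 without mouse 3 of the vehicle group) and -1.36 ± 0.20 in U2AF1(S34F) mice (FDR 0.00312). The genotype values were -1.03 ± 0.19 under vehicle (FDR 0.00153) and -1.50 ± 0.23 under sudemycin D6 (FDR 0.000922). Reads on annotated junctions ended 3 of these 4 calls: they gave 0.09 under vehicle (FDR 0.784), a turned direction, and -0.78 under sudemycin D6 (FDR 0.162), less than the -0.96 of H2-Q6 and the -0.90 of H2-Q4. For the drug they gave -0.97 in U2AF1(WT) mice (FDR 0.357), and they kept the call in U2AF1(S34F) mice. The locus carries the name H2-Q8 in the annotation of the count table and H2-Q5 in the junction table, where its 6 annotated junctions all lie inside chr17:35531071-35534971. That stretch lies between H2-Q4 and H2-Q6. Which name is right was not settled here, so no product is assigned to this locus.

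H2-Q6, also of the Qa-2 type, varied widely between mice of a group. It was at 42.0, 27.4, 46.6, 51.2 and 39.5 CPM in vehicle-treated and at 26.9, 17.8, 9.77, 29.3 and 33.1 CPM in sudemycin-treated U2AF1(WT) mice, groups that overlapped. The U2AF1(S34F) mice had 29.6, 45.7, 30.3, 26.9 and 23.9 CPM with vehicle and 12.6, 11.5, 9.86, 11.03 and 10.5 CPM with sudemycin, with no overlap. The fall with sudemycin in U2AF1(S34F) mice was -1.50 ± 0.15 (FDR 0.000493), and the value in U2AF1(WT) mice was -0.84 ± 0.29 (FDR 0.219), where DESeq2 gave an FDR of 0.0406. Between genotypes H2-Q6 missed the call under vehicle (-0.42 ± 0.18, FDR 0.103) and was lower in U2AF1(S34F) mice under sudemycin D6 (-1.08 ± 0.26, FDR 0.00969).

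H2-Q4 encodes Qb-1, a class I molecule known as a secreted form. It averaged 78.4 ± 8.61 CPM with vehicle and 64.2 ± 15.8 CPM with sudemycin in U2AF1(WT) mice, and 63.7 ± 9.18 and 36.98 ± 3.13 CPM in U2AF1(S34F) mice (SD, n = 5). The last group ranged from 32.3 to 39.7 CPM and lay below all other mice, the lowest of which was at 46.7 CPM. The drug change in U2AF1(S34F) mice was -0.79 ± 0.10 (FDR 0.00127) and in U2AF1(WT) mice -0.31 ± 0.15 (FDR 0.384). The genotype change was -0.31 ± 0.10 under vehicle (FDR 0.0365, and 0.109 without mouse 4 of the vehicle-treated U2AF1(WT) group) and -0.80 ± 0.14 under sudemycin D6 (FDR 0.00212).

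**Figure D3:**
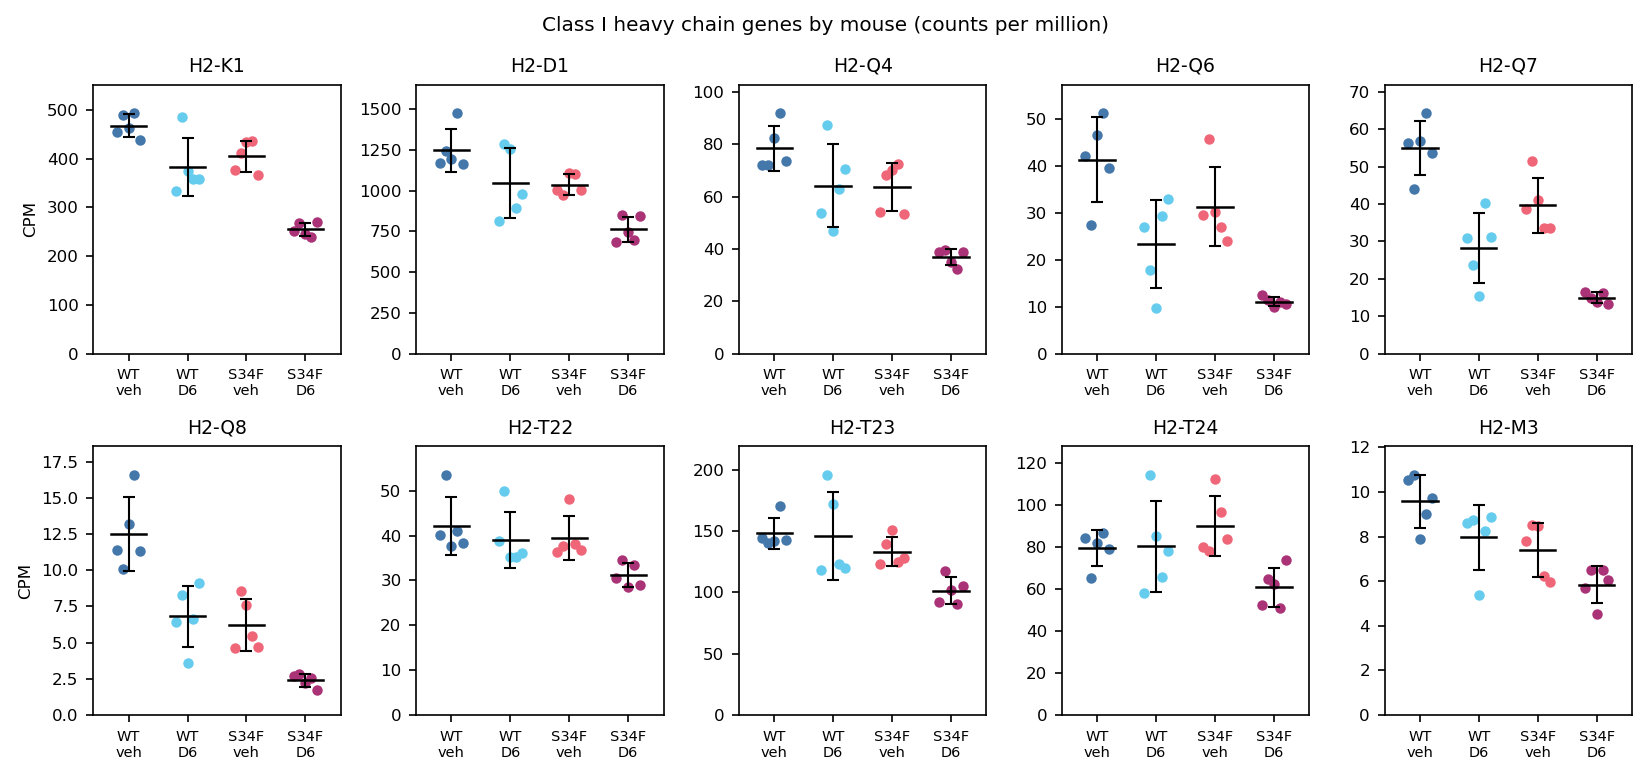
CPM of the 10 genes by group, each dot 1 mouse, with the mean (line) and SD (bar) of 5 mice; each panel has its own axis from 0. The 5 sudemycin-treated U2AF1(S34F) mice are below the 5 vehicle-treated U2AF1(S34F) mice in every panel but H2-M3.

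In the T and M region, H2-T23, which encodes the NK and CD8 T cell ligand Qa-1, was at 144, 140.5, 142, 170.3 and 143 CPM in vehicle-treated and at 118, 196, 172, 123 and 120.3 CPM in sudemycin-treated U2AF1(WT) mice. In U2AF1(S34F) mice it was at 123, 139.8, 150.5, 125 and 128 CPM with vehicle and at 92.0, 118, 102, 90.9 and 105 CPM with sudemycin. The 2 U2AF1(S34F) groups did not overlap, while sudemycin-treated U2AF1(WT) mice lay on both sides of their controls. The drug change was -0.40 ± 0.08 in U2AF1(S34F) (FDR 0.0207) and -0.04 ± 0.14 in U2AF1(WT) mice (FDR 0.943). Under sudemycin D6 the genotypes differed by -0.52 ± 0.14 (FDR 0.0177).

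H2-T24 was at 84.2, 65.2, 81.9, 86.8 and 79.1 CPM in vehicle-treated and at 58.2, 114, 85.3, 65.7 and 78.1 CPM in sudemycin-treated U2AF1(WT) mice. The values in U2AF1(S34F) mice were 80.04, 78.3, 112, 96.6 and 83.6 CPM with vehicle and 52.4, 64.7, 62.5, 50.7 and 73.6 CPM with sudemycin. The U2AF1(S34F) groups were apart and the U2AF1(WT) groups overlapped. It was the 1 gene whose value was higher in U2AF1(S34F) than in U2AF1(WT) mice under vehicle, at 0.17 ± 0.11, which was not called (FDR 0.263). The drug change in U2AF1(S34F) mice was -0.57 ± 0.12 (FDR 0.0236). The genotype call under sudemycin D6 (-0.40 ± 0.16, FDR 0.0873) was lost without mouse 8 of the sudemycin-treated U2AF1(WT) group (FDR 0.228), held in only 3 of 10 such fits and was lost by junction reads (-0.36, FDR 0.169).

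H2-T22, the γδ T cell ligand, averaged 42.2 ± 6.50 CPM with vehicle and 39.1 ± 6.22 CPM with sudemycin in U2AF1(WT) mice, and 39.4 ± 4.88 and 31.2 ± 2.70 CPM in U2AF1(S34F) mice (SD, n = 5). It was called lower with sudemycin in U2AF1(S34F) mice (-0.34 ± 0.09, FDR 0.0432), where the groups did not overlap, and between genotypes under sudemycin D6 (-0.33 ± 0.10, FDR 0.0317). H2-M3, the presenter of N-formylated peptides, averaged 9.58 ± 1.18, 7.97 ± 1.46, 7.40 ± 1.23 and 5.85 ± 0.815 CPM in the same order. It was the 1 gene that missed the call with sudemycin in U2AF1(S34F) mice (-0.34 ± 0.14, FDR 0.168), and it was called between genotypes under vehicle (-0.39 ± 0.13, FDR 0.0401) and under sudemycin D6 (-0.45 ± 0.16, FDR 0.0502). Without mouse 11 of the vehicle-treated U2AF1(S34F) group the first of these rose to 0.104, and without mouse 9 of the sudemycin-treated U2AF1(S34F) group the second rose to 0.118. By junction reads both were lost, at -0.34 (FDR 0.184) and -0.28 (FDR 0.307).

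Reads can be split between these similar genes, and how the counting treated reads that match several was not given in the sources used here. Junction reads of the same libraries offered a second count. Of the junction reads of H2-Q8, 15.9% joined it to another gene, as did 14.6% for H2-Q6, 5.15% for H2-Q4, 2.93% for H2-Q7 and 1.13% for H2-T22, and under 1% for the others. With the reads on annotated junctions summed per gene, the drug effect in U2AF1(S34F) mice was kept by the same 9 genes (3.83% of all 12244 genes tested on such reads were called lower), for example H2-K1 at -0.83, H2-Q7 at -1.61 and H2-Q8 at -1.85. The genotype effect under vehicle was not kept by most, where 17% of all genes were called lower: only H2-D1 (-0.28, FDR 0.0428) and H2-Q4 (-0.51, FDR 0.00781) were called. The vehicle calls of H2-Q7 and H2-Q8 thus depended on which reads were counted. Under sudemycin D6 the genotype effect was kept by 6 of 10 genes (16.5% of all), and with sudemycin in U2AF1(WT) mice by 0 (0.646% of all), although H2-Q7 and H2-Q8 had values of like size there. Mutation with drug against neither kept all 10 (22% of all).

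Junctions were tested against the other junctions of their gene. Under vehicle, 4 of 95 junctions of the 10 genes were called between the genotypes, where 1.71% of all 125410 junctions were, and without mouse 4 of the vehicle-treated U2AF1(WT) group 1 was left. Under sudemycin D6 it was 1 of 88 (2.27%), with sudemycin in U2AF1(WT) mice 1 of 93 (0.0552%), and with mutation and drug against neither 5 of 89 (2.17%). With sudemycin in U2AF1(S34F) mice 0 of 92 were called (0.0941%), where 9 had an unadjusted p under 0.05 and limma voom called 0 as well, and 1 was called among junctions with a mean of at least 50 reads. With 0.0941% of all junctions called there, 0 of 92 is near that share and does not show that splicing of these genes stayed the same.

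The clearest change was in H2-D1. Its less-used acceptor of the last intron, the CAG sequence shown above, joins an annotated donor to a site outside the annotation and held on average 139 of the 10170 reads of the donor per mouse. It took 0.623%, 0.867%, 0.378%, 0.504% and 0.187% of the reads of that donor in vehicle-treated and 0.371%, 0.0834%, 0.734%, 0.810% and 0.223% in sudemycin-treated U2AF1(WT) mice. In U2AF1(S34F) mice it took 2.35%, 3.38%, 1.46%, 3.92% and 3.28% with vehicle and 0.894%, 2.34%, 1.28%, 2.32% and 1.26% with sudemycin. Every U2AF1(S34F) mouse was above every U2AF1(WT) mouse. The difference between genotypes was 2.37 percentage points under vehicle and 1.18 under sudemycin D6, each with an exact permutation p of 0.00794, the smallest that 5 against 5 mice allow. Against the rest of the gene the junction was called in both (log2 change 2.44, FDR 1.3e-08, and 1.93, FDR 0.0039) and in all 10 fits without 1 mouse of each. Sudemycin in U2AF1(S34F) mice gave -1.26 points (two-sided exact p = 0.0317, FDR 0.895 in the junction test), and the difference of the 2 drug effects had an exact permutation p of 0.0774 over 63504 arrangements.

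H2-K1 holds the mirror image of this pair, with CAG as its main acceptor and TAG as the lesser, which held on average 337 of 4457 reads per mouse. The TAG acceptor took 10.95%, 8.73%, 9.55%, 12.1% and 8.98% of the reads in vehicle-treated and 7.05%, 11.4%, 8.16%, 9.18% and 10.25% in sudemycin-treated U2AF1(WT) mice. The share in U2AF1(S34F) mice was 5.57%, 6.00%, 5.65%, 4.92% and 5.49% with vehicle and 6.03%, 7.42%, 5.53%, 4.70% and 4.76% with sudemycin. Under vehicle the genotypes did not overlap, and under sudemycin D6 they overlapped through 1 mouse on each side. The difference was -4.53 points under vehicle (exact permutation p = 0.00794, FDR 0.0283 in the junction test) and -3.52 points under sudemycin D6 (exact permutation p = 0.0159, FDR 0.245). The vehicle call held in 6 of 10 fits without 1 mouse, with an FDR of 0.157 without mouse 11 of the vehicle-treated U2AF1(S34F) group, and mutation with drug against neither was called in all 10 (FDR 2.7e-05). So in both classical genes the CAG acceptor took a larger share and the TAG acceptor a smaller share in U2AF1(S34F) mice under vehicle.

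The last exons of these genes encode the cytoplasmic tail of the heavy chain. In both genes the 27 bases between the acceptors are 9 codons, keep the frame and hold no stop codon, and a stop codon follows 2 bases after the downstream acceptor. The donor and acceptor exons of the 2 genes differ at 4 of 39 bases before the donor and at 1 of 47 bases after the upstream acceptor, so reads of one could be placed on the other. The reads on the H2-D1 CAG acceptor equalled 0.404% to 2.10% of the reads on the H2-K1 CAG acceptor in vehicle-treated U2AF1(WT) mice, 0.279% to 2.77% with sudemycin, 2.30% to 9.50% in vehicle-treated U2AF1(S34F) mice and 2.85% to 8.67% with sudemycin. The ranges of that ratio were apart between the genotypes within each treatment, and the part of misplaced reads in the H2-D1 share was not tested.

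**Figure D4:**
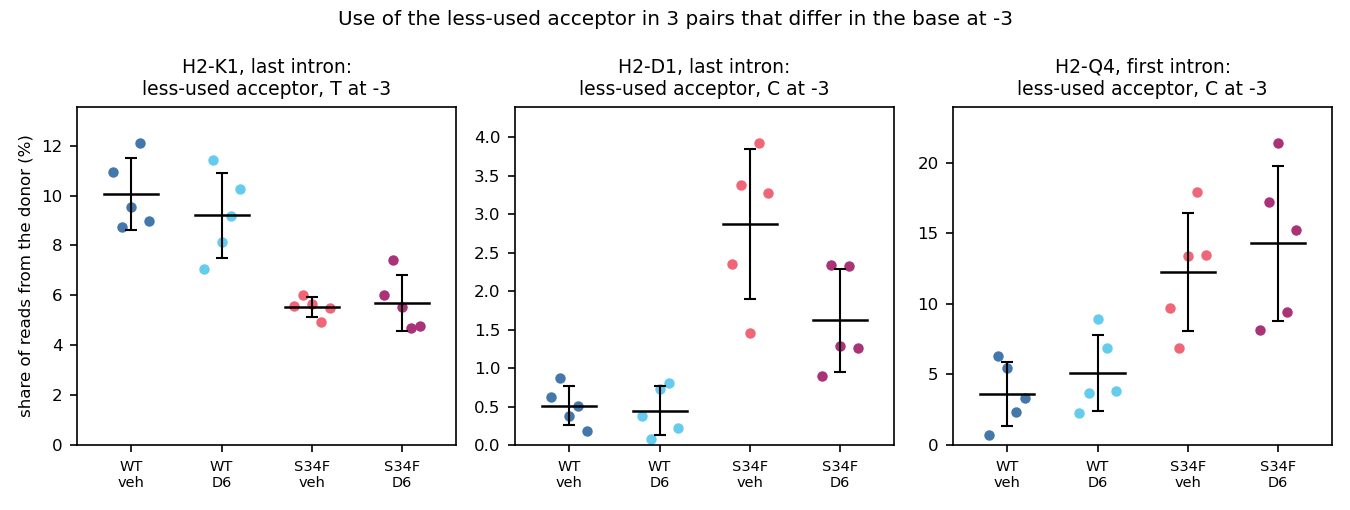
Share of the reads of a donor that use its less-used acceptor, in percent, by group; each dot is 1 mouse, with the mean (line) and SD (bar) of 5 mice. H2-D1 and H2-Q4 gain the acceptor with C before AG in U2AF1(S34F) mice and H2-K1 loses the acceptor with T before AG.

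H2-Q4 showed the same direction with few reads, 19.1 per mouse on its CAG acceptor, and without a call. This acceptor took 0.685%, 6.28%, 5.43%, 2.31% and 3.31% of reads in vehicle-treated U2AF1(WT) mice and 9.68%, 6.84%, 13.4%, 17.9% and 13.5% in vehicle-treated U2AF1(S34F) mice, with no overlap. Sudemycin-treated mice had 2.30%, 3.70%, 8.90%, 6.85% and 3.82% in U2AF1(WT) and 8.13%, 17.2%, 21.4%, 9.40% and 15.2% in U2AF1(S34F), which overlap. The differences were 8.66 points (exact permutation p = 0.00794, FDR 0.310) and 9.16 points (exact permutation p = 0.0159, FDR 0.535). In all, 7 pairs of acceptors of these genes that shared a donor and had at least 10 reads on the lesser acceptor had T before AG in 1 acceptor and C in the other. Over all genes, 3153 pairs met the same conditions. Under vehicle the C acceptor was higher in U2AF1(S34F) mice in 6 of the 7, where it was in 68.3% of all pairs, and 3 of the 7 had ranges apart, where 8.25% of all did. Under sudemycin D6 it was higher in 5 of 7 (71.3% of all) and apart in 1 (8.69% of all). With sudemycin it was higher in 3 of 7 in U2AF1(WT) mice (48.6% of all) and in 1 of 7 in U2AF1(S34F) mice (47.8% of all). The direction toward the C acceptor in U2AF1(S34F) mice was thus that of most such pairs in all genes. The H2-T24 pair was the exception under vehicle.

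That H2-T24 junction is an annotated one that passes over 3 exons (chr17:36143734-36154186). It took 29.6%, 24.8%, 15.5%, 23.95% and 14.2% of the reads of its donor in vehicle-treated and 13.6%, 5.16%, 5.59%, 9.06% and 11.6% in sudemycin-treated U2AF1(WT) mice, with no overlap. Among U2AF1(S34F) mice it took 14.8%, 11.8%, 14.0%, 16.6% and 13.1% with vehicle and 8.41%, 9.64%, 15.4%, 12.6% and 13.8% with sudemycin, which overlap. The drug difference was -12.6 points in U2AF1(WT) mice (exact permutation p = 0.00794, FDR 0.0852) and -2.07 points in U2AF1(S34F) mice (exact permutation p = 0.222), and the difference of these had an exact permutation p of 0.0552. The call in U2AF1(WT) mice held in 2 of 10 fits without 1 mouse, with an FDR of 0.405 without mouse 1 of the vehicle group, and limma voom gave 0.233.

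Another 2 junctions were called under vehicle. In H2-D1 an annotated alternative donor at position 35403013, which lies 9 bases inside the fourth intron, fell in U2AF1(S34F) mice by 1.44 on the log2 scale relative to its gene (FDR 0.0303, and 0.159 without mouse 4 of the vehicle-treated U2AF1(WT) group). Its reads were 94, 176, 100, 193 and 134 in vehicle-treated U2AF1(WT) mice. In U2AF1(S34F) mice they were 52, 76, 72, 0 and 46 with vehicle and 36, 0, 52, 41 and 0 with sudemycin, so some mice had none. In H2-T23 an unannotated acceptor at position 36168289 took 2.37%, 2.61%, 2.45%, 4.64% and 2.77% of the reads of its donor in vehicle-treated U2AF1(WT) and 1.71%, 1.02%, 1.29%, 1.69% and 0.905% in vehicle-treated U2AF1(S34F) mice, which do not overlap. Its FDR was 0.0791, and 0.330 without mouse 4 of the U2AF1(WT) group. Both were called in mutation with drug against neither (FDR 0.00397 and 0.0075) in all 10 fits without 1 mouse.

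Most partner genes of the heavy chain were not called lower in any single comparison. The 9 light chain and peptide loading genes had a median log2 change of -0.15 with sudemycin in U2AF1(S34F) mice, beside -0.01 over all genes. B2m, the light chain, was higher in U2AF1(S34F) than in U2AF1(WT) mice under vehicle (0.32 ± 0.13, FDR 0.0786), fell with sudemycin in U2AF1(S34F) mice (-0.34 ± 0.09, FDR 0.0562), and was not called in mutation with drug against neither, at 507 against 508 CPM (FDR 0.986). Of 9 light chain and peptide loading genes, 2 were called lower with sudemycin in U2AF1(S34F) mice, B2m and the peptide transporter gene Tap1 (-0.42 ± 0.11, FDR 0.0471), and 0 higher. Over all genes 5.85% were called lower and 4.94% higher there. In mutation with drug against neither 3 were lower, Tap1 (-0.39), Tap2 (-0.24) and Tapbp, which encodes tapasin (-0.30), and 4 were higher, among them the chaperone genes Calr (0.47) and Canx (0.42). Of all genes, 25.1% were called lower and 25.1% higher in that comparison. Of 4 immunoproteasome genes tested, none was called with sudemycin in either genotype. The shares of all genes were 5.85% lower and 4.94% higher in U2AF1(S34F), and 1.89% and 1.18% in U2AF1(WT) mice.

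Of 16 listed regulators of class I transcription, 3 were called lower with sudemycin in U2AF1(S34F) mice and 0 higher (5.85% and 4.94% of all genes). Those lower included Irf9 (-0.55, FDR 0.0194) and Irf1 (-0.49, FDR 0.0890), which encode factors of interferon signalling. Nlrc5, the class I transactivator, was at -0.54 ± 0.22 there (FDR 0.188) and was called lower in mutation with drug against neither (-0.32 ± 0.08, FDR 0.0043). In that comparison 9 of the 16 genes were lower and 2 higher, beside 25.1% of all genes each way. In both genotype comparisons Irf2 (-0.90 and -0.69) and Rela, an NF-κB subunit (-0.47 and -0.41), were called lower in U2AF1(S34F) mice. Other regulators went the other way: of the 16 genes, 4 were lower and 3 higher under vehicle, and 3 lower and 2 higher under sudemycin D6. Over all genes 19.8% were lower and 19.7% higher under vehicle, and 19.6% and 17.2% under sudemycin D6. Mouse 8 of the sudemycin-treated U2AF1(WT) group had 134 CPM of Nlrc5, beside 33.2 to 38.8 CPM in the other 4, and it was the mouse of that group with the highest summed class I level.

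Interferon-stimulated genes were also lower with the drug in U2AF1(S34F) mice. Of 28 listed, 19 were called lower and 0 higher with sudemycin in U2AF1(S34F) mice (median -0.99), and 4 lower and 0 higher in U2AF1(WT) mice (median -0.41). Over all genes it was 5.85% lower and 4.94% higher in U2AF1(S34F), and 1.89% and 1.18% in U2AF1(WT) mice. Under vehicle the interferon-stimulated genes went the other way from the class I genes. In U2AF1(S34F) mice 10 were called higher and 1 lower (19.7% and 19.8% of all genes), with a median of 0.27. Their summed level ranged from 442 to 582 CPM in vehicle-treated U2AF1(WT) mice. In sudemycin-treated U2AF1(WT) mice it was at 316, 1014, 388, 322.5 and 351.5 CPM. Mouse 8 had the 1014 CPM, and the others of that group lay below every vehicle-treated U2AF1(WT) mouse. The sum ranged from 483 to 986 CPM in vehicle-treated and from 345 to 429 CPM in sudemycin-treated U2AF1(S34F) mice. The part of interferon signalling in the class I levels was not tested.

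Markers of other cell types also differed between the groups. Beside their counts stand the shares of all genes called. In mutation with drug against neither 25.1% were lower and 25.1% higher. Between genotypes 19.8% were lower and 19.7% higher under vehicle, and 19.6% and 17.2% under sudemycin D6. With sudemycin 5.85% were lower and 4.94% higher in U2AF1(S34F), and 1.89% and 1.18% in U2AF1(WT) mice. All 8 B lineage markers were called lower in mutation with drug against neither (median -1.60), 4 of 8 between genotypes under sudemycin D6, 2 and 1 with sudemycin in U2AF1(WT) and U2AF1(S34F) mice, and 0 between genotypes under vehicle (median -0.97). Their sum ranged from 39.7 to 140.1 CPM in vehicle-treated and from 25.1 to 172 CPM in sudemycin-treated U2AF1(WT) mice, and from 16.1 to 162 and from 34.4 to 52.3 CPM in U2AF1(S34F) mice, and each of the 8 markers was above 0 in every mouse. The 2 sudemycin-treated U2AF1(WT) mice lowest in this sum, 8 and 9, were also lowest in H2-Q6 and H2-Q7. Other members went the other way in mouse 8. It was the highest of its group in H2-K1, H2-D1, H2-Q4, H2-T22, H2-T23 and H2-T24. Mouse 9 was the lowest of the group in H2-Q4, H2-Q8, H2-T22 and H2-M3. T and NK cell markers were lower in 3 of 8 with sudemycin in U2AF1(S34F) mice and their sums overlapped, from 83.3 to 107 CPM with vehicle and from 67.8 to 85.5 CPM with sudemycin. Monocyte and macrophage markers were lower in 5 of 8 and higher in 1 in U2AF1(S34F) mice under vehicle (median -0.42), and with sudemycin in U2AF1(S34F) mice 0 were lower and 1 higher. Their sums overlapped, from 1779 to 2473 CPM in vehicle-treated U2AF1(WT) and from 1466 to 1894 CPM in vehicle-treated U2AF1(S34F) mice. Dendritic cell markers were lower in 3 of 7 tested and higher in 1 with sudemycin in U2AF1(S34F) mice (median -0.51), and lower in 5 of 8 and higher in 1 in mutation with drug against neither (median -0.62). In U2AF1(S34F) mice they summed to 90.4 to 133 CPM with vehicle and to 66.7 to 91.6 CPM with sudemycin. Of 6 megakaryocyte markers, 2 were lower with sudemycin in U2AF1(S34F) mice (median -0.66), and 4 were lower and 1 higher in mutation with drug against neither (median -0.88). Erythroid markers were lower in 3 of 8 between genotypes under sudemycin D6 and in 1 with sudemycin in U2AF1(S34F) mice. Neutrophil markers were called in 0 of 8 in either drug comparison and were higher in 4 of 8 in U2AF1(S34F) mice under vehicle. With vehicle their sums did not overlap, from 60110 to 68360 CPM in U2AF1(WT) and from 82340 to 134500 CPM in U2AF1(S34F) mice. The part of cell composition in the class I levels was not tested.

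**Figure D5:**
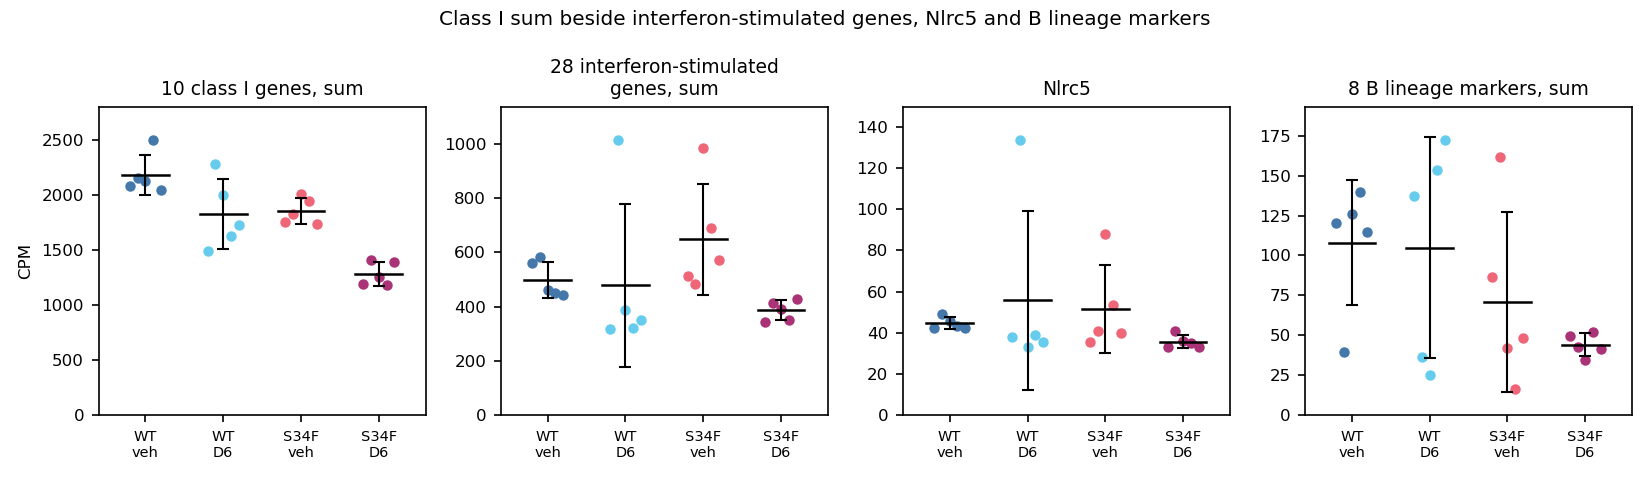
Summed CPM of the 10 class I genes, of 28 interferon-stimulated genes and of 8 B lineage markers, and CPM of Nlrc5, by group; each dot is 1 mouse, with the mean (line) and SD (bar) of 5 mice. In the class I panel the sudemycin-treated U2AF1(S34F) mice lie below all others. In the interferon and B lineage panels they are tightly grouped, but some mice of other groups lie lower. A single sudemycin-treated U2AF1(WT) mouse stands out in the interferon and Nlrc5 panels.

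The genes whose pattern over the 20 mice was most like the mean standardized level of the class I genes were Trim34a (Pearson r 0.919), Gbp9 (0.901), Dapk2 (0.891), Irf7 (0.881) and 6030429G01Rik (0.878), each over 20 mice on log2(CPM + 0.5). Irf7, which encodes a transcription factor of the interferon response, averaged 40.7 CPM in vehicle-treated and 23.2 CPM in sudemycin-treated U2AF1(WT) mice, and 34.3 and 16.2 CPM in the 2 U2AF1(S34F) groups. The mice share their groups, so these correlations describe the groups as much as the mice.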

How the data were processed

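The authors aligned stranded, ribosomal RNA-depleted paired-end reads to mm9 with TopHat2 2.0.8 and deposited whole-number read counts, without normalization, for 37620 genes and 554616 splice junctions. The counting program is not given in the sources used here. The gene test was the robust quasi-likelihood test of edgeR 4.0.16 (R 4.3.3), after TMM scaling and filterByExpr and with a prior count of 2, each comparison on its own 10 mice and the interaction on all 20, with Benjamini-Hochberg adjustment over all genes tested. Junctions were tested against the rest of their gene with edgeR's diffSpliceDGE over all junctions of 1 gene. Shares of 113 splice site uses were compared by two-sided exact permutation tests in 565 comparisons, with raw p-values, and pairs of T and C acceptors were counted the same way over all genes. DESeq2 1.42.0, limma 3.58.1, other filters, FDR<5%, 1 model of all mice, a block and leaving out each mouse were alternatives, and the tests were tried on simulated counts. Sequences, usage and plots used Python 3.11.15. The members, lists and tests were chosen with earlier results of these data known. All members, 7 fixed genes, other class I genes that passed the filter, and up to 3 called genes of a list with the largest change were named, except 1 item that is not reported here; Irf7 and mice 8 and 9 were singled out after their values were seen. P-values measure the spread between recipients of pooled marrow.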

Additional observations from a re-analysis of the deposited data

Results flagged for a closer look

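In 64 sets of 5 mice, 9 values lay further from their group than Dixon's 95% limit of 0.71, and chance alone marks about 1 in 20 sets. H2-K1 at 486 CPM in mouse 8 of the sudemycin-treated U2AF1(WT) group was high for its group. H2-D1 at 1474 CPM, H2-T23 at 170.3 CPM, the summed CPM of the 10 genes at 2498 and the share of the H2-T23 intronic acceptor at 4.64% were all high in mouse 4 of the vehicle-treated U2AF1(WT) group. H2-T22 was high in 3 groups, at 53.6 CPM in mouse 2 of the vehicle-treated U2AF1(WT), 49.9 CPM in mouse 8 of the sudemycin-treated U2AF1(WT) and 48.1 CPM in mouse 5 of the vehicle-treated U2AF1(S34F) group. H2-M3 was low at 5.39 CPM in mouse 9 of the sudemycin-treated U2AF1(WT) group.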

How the results depend on the processing

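The summed level kept its direction in all 60 alternatives. Called genes of the 10 moved as follows: with summed junction reads to 2 (genotype, vehicle), 6 (genotype, sudemycin D6) and 0 (drug in U2AF1(WT)); for the last also to 1 at FDR<5% and 4 in 1 model of all mice, and between 1 (without mouse 1 of its vehicle group) and 3 (without mouse 8 of its sudemycin group) when 1 mouse was left out. Mouse numbers did not pair the mice, as deviations of same-numbered mice correlated between -0.18 and 0.37. On the numbers both genotypes share, the replicate block called 4 genes under vehicle (3 without it) and 7 under sudemycin D6 (6 without it), and H2-T22 under vehicle turned to 0.043 with the block and 0.0546 without. The drug comparisons share no numbers that could be blocked. Values near 0 turned: H2-Q7 to 0.0776 and H2-Q8 to 0.0884 (vehicle, junction reads), H2-M3 in the interaction to 0.0404 (junction reads; -0.16 to 0.0349 without 1 mouse), and, for the drug in U2AF1(WT), H2-T24 to 0.0061 (DESeq2), 0.0059 (its size factors in edgeR) and 0.0162 (1 model; -0.16 to 0.0872 without 1 mouse) and H2-T23 to between -0.17 and 0.0194 without 1 mouse. Called junctions without 1 mouse ranged from 1 to 4 (vehicle; 1 without mouse 4 of U2AF1(WT)), 1 to 3 (sudemycin D6; limma voom 3) and 0 to 2 (drug in U2AF1(WT); 0 with limma voom or FDR<5%), and at a mean of 50 reads 1 was called for the drug in U2AF1(S34F). With all reads of the gene as denominator, the drug difference of the H2-K1 acceptor was -0.517 points in U2AF1(WT) (exact p = 0.0476) and -0.197 in U2AF1(S34F) mice, and that of H2-D1 -0.199 (exact p = 0.0635). Without 1 mouse these shares differed by -0.269 to 0.411 (H2-K1, U2AF1(S34F)), -0.159 to 0.0229 (H2-D1, U2AF1(WT)) and -1.61 to -0.996 points (H2-D1, U2AF1(S34F)). Where no cause is given it was not tested. Junction counts of H2-Q8 (205.5 per mouse) and of the H2-Q4 acceptor limit those values.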

Other observations

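Other class I and class I-like genes gave values outside the comparisons above. Of 17 listed and found in the table, 8 or 9 passed the filter on low counts in each comparison. With sudemycin in U2AF1(S34F) mice 4 were called lower and 1 higher (5.85% and 4.94% of all genes). H2-Q10, known as a secreted class I molecule of the liver, averaged 69.6 ± 28.2 CPM with vehicle and 40.1 ± 20.97 CPM with sudemycin in U2AF1(WT) mice (SD, n = 5). With the mutation it averaged 52.04 ± 15.1 and 22.98 ± 4.91 CPM, and it fell with sudemycin in U2AF1(S34F) mice (-1.18 ± 0.21, FDR 0.0120). Reads shared with the other Q genes cannot be told apart in the gene counts. H2-T10, a close relative of H2-T22, fell by 0.43 on the log2 scale (FDR 0.0273). Hfe, an iron regulator with a class I fold, was the gene that was higher (0.58 ± 0.10, FDR 0.0081), and it was lower in U2AF1(S34F) mice under vehicle (-0.71 ± 0.14, FDR 0.00222).

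Receptors that read class I molecules differed between the genotypes in both directions. Under vehicle 7 of 13 were called higher and 3 lower in U2AF1(S34F) mice, where 19.7% of all genes were called higher and 19.8% lower. The summed level of the 13 genes was nevertheless lower in U2AF1(S34F) mice. It ranged from 732 to 851 CPM there and from 987 to 1164 CPM in U2AF1(WT) mice, both with vehicle. Of 8 T and NK cell markers, 3 were called higher and 1 lower in the same comparison, and their part in the receptor levels was not tested. The higher ones included NK cell receptor genes: Klra3 (2.04 ± 0.52), Klra8 (1.76 ± 0.41) and Klrc1 (1.69 ± 0.26), the last of which encodes NKG2A, the receptor chain for the H2-T23 product. Klrc1 averaged 1.45 CPM in vehicle-treated U2AF1(WT) and 4.84 CPM in vehicle-treated U2AF1(S34F) mice. Cd8a, the co-receptor of T cells restricted by class I, was lower in U2AF1(S34F) mice under sudemycin D6 (-1.82 ± 0.26, FDR 0.000563), at 0.898 against 3.25 CPM. With sudemycin in U2AF1(WT) mice 0 of 12 receptor genes were called in edgeR, where 1.89% of all genes were called lower and 1.18% higher.

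In the first intron of H2-K1, an annotated acceptor 60 bases upstream of the main one was singled out after its values were seen. It took 2.60% ± 0.196 of the reads of its donor with vehicle and 3.51% ± 0.578 with sudemycin in U2AF1(WT) mice (SD, n = 5). With the mutation the shares were 1.69% ± 0.357 with vehicle and 2.71% ± 0.44 with sudemycin (SD, n = 5). Sudemycin differed from vehicle by 0.913 points in U2AF1(WT) and by 1.02 points in U2AF1(S34F) mice, each with a raw two-sided exact permutation p of 0.0159 among 565 comparisons. The junction test did not call it in either genotype. Between genotypes the share was lower in U2AF1(S34F) mice, by -0.913 points under vehicle and by -0.805 points under sudemycin D6. The raw two-sided exact permutation p was 0.00794 and 0.0476, and the junction test called neither (FDR 0.431 and 0.450).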
